A study of Mus musculus with 4 samples.

Results

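The ATP-binding cassette (ABC) transporter family was described here as 48 genes out of the 19935 compared. Members were the probe sets whose platform annotation gives exactly 1 symbol that begins with Abc, a letter from a to g and a digit. This took 49 of the 28815 probe sets in the table. Abcb5 had 2 probe sets, which were averaged, and the other members had 1 each. Subfamily A held 16 members, B 9, C 10, D 3, E 1, F 3 and G 6.

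ABC proteins are built around a cassette that binds and hydrolyses ATP, and most of them use it to move a substrate across a membrane. Subfamily A mainly handles lipids, B holds the P-glycoprotein drug pumps together with mitochondrial and peptide transporters, C holds the multidrug resistance proteins, D serves the peroxisome and G holds sterol exporters and the drug pump Abcg2. Proteins of subfamilies E and F carry the cassette without a membrane part and act on the ribosome and in translation. P-glycoprotein and ABCG2 are known to carry imatinib out of cells, and for this reason efflux pumps are studied in chronic myeloid leukaemia.

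RNA came from Ba/F3, a mouse pro-B cell line that depends on the growth factor interleukin-3 (IL-3), and was measured on 4 Affymetrix Gene ST arrays. One array held parental cells in IL-3, and the other 3 held a derived Ba/F3 line in which doxycycline at 500 ng/ml induces the leukaemia kinase BCR-ABL: A and B without IL-3, and a single array of cells given IL-3 as well. Nothing in the labels tells if A and B came from separate cultures, so p-values rest on the spread of that pair alone, and that spread may be technical. The number of clones in the derived line is not stated, and derived cells without doxycycline were not analysed here. BCR-ABL, doxycycline and the derivation of the line therefore cannot be told apart. Where A and B are set against the parental array, the absence of IL-3 changes along with them and cannot be told apart either.

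Every deposited value is a difference from the parental array, which stands at 0 throughout, and is read here as log2. A value of 1 is therefore a level 2-fold above the parental array, and absolute levels were not analysed, so the presence of pro-B or other markers could not be checked by level. All values below are log2 differences from the parental array unless a fold or another comparison is named. The median over all genes was 0.0044 on A, -0.077 on B and 0.0085 on the array with IL-3. For A and B against the parental array, limma called 5.19% of all genes higher and 2.87% lower. Of the 6 measured erythroid markers, limma called 4 lower, with a median of -0.81. Mast cell and basophil markers went both ways, with 2 of 8 called higher (Cpa3 at a mean of 3.04 in A and B, and Hdc at 0.74) and 1 lower (Cma1 at -0.90). In the neutrophil and monocyte list limma called 1 of 8, Cebpe, at -0.76, and in the non-haematopoietic list 1 of 8, Pecam1, at 0.59. For the B cell and the T and NK lists limma called 0 of 7 each, and robust limma 0. An unadjusted p under 0.05 in limma was found for 1 of each, beside 16.6% of all genes. The part of these markers in the results below was not tested.

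In BCR-ABL cells without IL-3 a few members stood well apart from the parental level. The mean of A and B lay within 0.2 of the parental value for 33 of 48 members, beside 13812 of all 19935 genes, which is about the same share. Limma, fitted over all genes with Benjamini-Hochberg adjustment and called at an adjusted p under 0.05, called 4 members higher (Abcb1b, Abcg1, Abcf2 and Abce1) and 4 lower (Abcg3, Abca1, Abcb10 and Abcc5). That is 8 of 48 members, or 16.7%, beside 8.06% of all genes, and 8.33% of the family in each direction, beside 5.19% of all genes called higher and 2.87% called lower. The family's median difference was -0.056, beside -0.038 over all genes, and it became -0.02 when each array was centred on its own median. All 3 BCR-ABL arrays lay below the parental array for 19 members, or 39.6%, beside 31.5% of all genes, and above it for 13 members, or 27.1%, beside 23.6%. Both A and B were at least 2-fold above the parental array for 1 member, Abcb1b, beside 0.903% of all genes. Both were at least 2-fold below it for 2 members, Abcb10 and Abcg3, beside 0.406% of all genes. Centring each array on its median ended the calls of Abcc5 (adjusted p = 0.112 by limma) and Abce1 (adjusted p = 0.0555) and left the other 6. The differences themselves moved little, from -0.63 to -0.59 for Abcc5 and from 0.62 to 0.66 for Abce1.

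**Figure D1:**
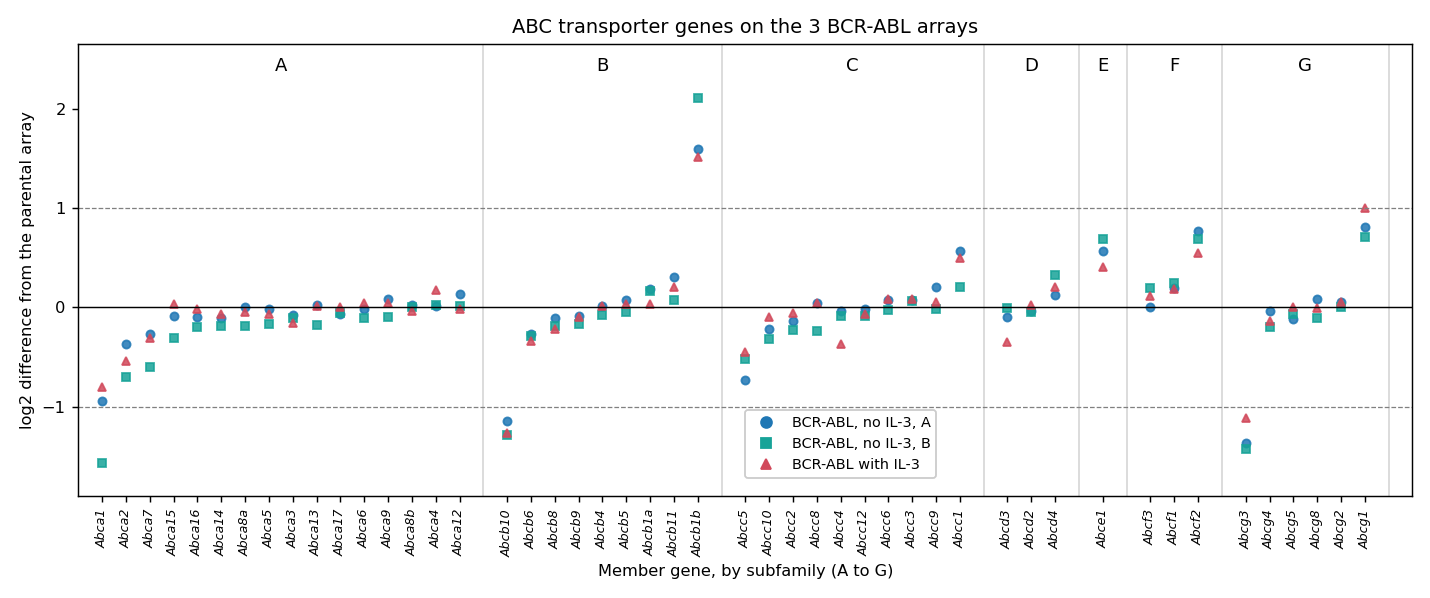
Log2 difference from the parental array (vertical axis) for each of the 48 ABC genes, grouped by subfamily A to G and ordered by the mean of A and B within it; points are single arrays, and dashed lines mark 2-fold. Abcb1b stands above 1 on all 3 BCR-ABL arrays, Abcb10 and Abcg3 stand below -1 on all 3, and most genes lie near 0.

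Probe sets of low signal were common in the family. A stored log2 signal below 8 on some array, read from the spacing of the printed digits and called dim here, was found for 22 of 49 family probe sets, or 44.9%, beside 35.3% of all probe sets with 1 symbol. Dim members made up 10 of 16 genes in subfamily A, 4 of 6 in G, 4 of 10 in C and 3 of 9 in B, and 0 in D, E and F. Of the 21 dim genes, Abcg3 was the only one called. Among the 27 genes not seen as dim, 4 were called higher and 3 lower. Over all genes, dim or not, 8.06% were called. The shares among all dim genes and among all other genes were not counted, so these 2 counts have no background of their own.

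The drug pumps differed from each other. Abcb1b, 1 of the 2 mouse genes for P-glycoprotein, stood at 1.59 on A, 2.11 on B and 1.51 on the array with IL-3. All 3 BCR-ABL arrays were thus well above the parental array, and B was the highest. The mean of A and B was 1.85 (SE 0.19, 95% interval 1.46 to 2.24, adjusted p = 3.24e-06 by limma), a 3.61-fold higher level that ranked 47 among the 19935 genes. Robust limma gave an adjusted p of 9.95e-05, and centring the arrays gave 0.0165 at a difference of 1.89.

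Abcb1a, the other P-glycoprotein gene, stood at 0.19 on A, 0.16 on B and 0.03 with IL-3. All 3 values lay near the parental level, and the mean of A and B was not called (0.18, 95% interval -0.15 to 0.50, adjusted p = 0.783 by limma). Abcb4, which encodes the phospholipid pump of bile and is the closest relative of this pair in the gene cluster, stood at 0.01, -0.08 and 0.01, with a dim probe set. Coding sequences of Abcb1a and Abcb1b are much alike, and how far their probes tell them apart was not tested.

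Abcc1, the multidrug resistance protein that exports glutathione conjugates, stood at 0.57 on A, 0.21 on B and 0.50 with IL-3. All 3 arrays were above the parental array, but the mean of A and B was not called (0.39, 95% interval 0.03 to 0.74, adjusted p = 0.242 by limma). Abcg2, the breast cancer resistance protein, stood at 0.05, 0.01 and 0.05, with a dim probe set and no call (95% interval -0.29 to 0.35, adjusted p = 1 by limma). Whether that probe set lies above background was not analysed.

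Abcb1b lies in a cluster with Abcb1a and Abcb4, and the 6 protein-coding genes on each side of it in the RefSeq gene table (GRCm38.p6) were all measured. Of these 12 neighbours 0 were called higher and 1 lower, beside 5.19% and 2.87% of all genes. The called gene was Crot, a peroxisomal carnitine acyltransferase, at -0.47 on A, -0.57 on B and -0.45 with IL-3 (mean of A and B -0.52, adjusted p = 0.0465 by limma, and 0.0888 after centring). The median of the neighbours was 0.02. The neighbour with the highest mean was Slc25a40, a mitochondrial carrier, at 0.20 on A, 0.50 on B and -0.01 with IL-3 (adjusted p = 0.296 by limma).

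**Figure D2:**
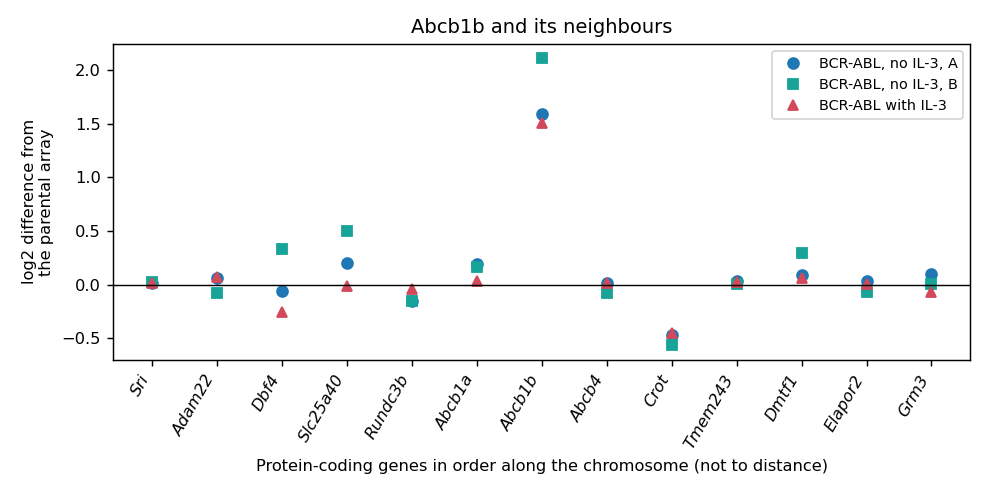
Log2 difference from the parental array (vertical axis) for Abcb1b and the 6 protein-coding genes on each side, in chromosomal order and not to distance; points are single arrays. Abcb1b stands between 1.51 and 2.11 on the 3 BCR-ABL arrays, while Abcb1a beside it stands between 0.03 and 0.19.

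The upstream sequences of the P-glycoprotein pair are shown because the 2 genes differed so widely, and that of Abcc5 because it alone among the family's promoters held the STAT motif. They are the 250 bases before the annotated start, 5′ to 3′ on the gene's strand, from RefSeq (GRCm38.p6): Abcb1b at chr5:8797897-8798146 and Abcb1a at chr5:8566841-8567090, both on the plus strand, and Abcc5 at chr16:20426395-20426644 on the minus strand. Capitals mark matches, on either strand, to any of 6 motifs. These were TTCNNNGAA for STAT factors and CCAAT for NF-Y. The search also took GGGCGG for SP1, TGACTCA for AP-1 and TATAAA as the TATA box, and the NF-kB consensus.
Abcb1b: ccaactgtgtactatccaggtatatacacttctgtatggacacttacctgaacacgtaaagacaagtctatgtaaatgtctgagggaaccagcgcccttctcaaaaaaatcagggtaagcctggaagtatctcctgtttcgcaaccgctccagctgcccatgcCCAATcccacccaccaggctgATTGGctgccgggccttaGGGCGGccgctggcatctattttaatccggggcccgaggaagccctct
Abcb1a: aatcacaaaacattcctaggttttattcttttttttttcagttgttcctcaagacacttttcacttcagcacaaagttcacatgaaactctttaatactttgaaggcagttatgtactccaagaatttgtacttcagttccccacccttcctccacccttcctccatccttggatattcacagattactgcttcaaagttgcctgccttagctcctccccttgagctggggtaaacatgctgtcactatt
Abcc5: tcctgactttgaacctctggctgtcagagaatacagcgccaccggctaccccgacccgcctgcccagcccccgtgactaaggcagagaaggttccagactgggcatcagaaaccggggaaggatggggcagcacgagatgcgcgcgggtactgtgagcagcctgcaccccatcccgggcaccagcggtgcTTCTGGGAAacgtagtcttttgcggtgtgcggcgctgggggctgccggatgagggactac

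Abcb1b held CCAAT starting 87 bases before the start, its reverse complement ATTGG starting 66 bases before it, and GGGCGG starting 48 bases before it, with no overlap. Abcb1a held none of the 6 motifs. Abcc5 held TTCTGGGAA, a match to the STAT motif, starting 60 bases before the start. Of 32851 RefSeq promoters of this length 33.8% hold CCAAT, 32.7% GGGCGG and 7.02% TTCNNNGAA. Promoters were found for 38 of the 48 members, 45 in all since 6 members have several starts, and of these 28.9% held CCAAT, 44.4% GGGCGG and 2.22% the STAT motif. The TATA box was in 11.1% of the family's promoters, among them that of Abca1, beside 12.4% of all. The AP-1 and NF-kB motifs were in 0 of the 45, beside 4.46% and 0.14% of all promoters. A match is a run of letters, and none of these data measure binding.

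Genes known to regulate P-glycoprotein transcription were looked at for A and B against the parental array. A list this short can hold 0 calls at the share of all genes. Limma called 0 of the 16 measured genes of an 18-gene list, beside 8.06% of all genes, and robust limma called 0. An unadjusted p under 0.05 in limma was found for 4 of the 16, beside 16.6% of all genes. Nfya and Nfyb, subunits of the CCAAT-binding factor, had mean values of 0.21 and 0.29 in A and B, and Sp1 had -0.29. The xenobiotic receptors Nr1i2 and Nr1i3 were at 0.05 and 0.02. Jun, an AP-1 subunit, had the highest mean at 0.49 (adjusted p = 0.0896 by limma) and stood at 0.33 on A, 0.64 on B and 1.02 with IL-3.

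Genes of drug uptake and conjugation went both ways. Of 14 measured genes on a list of 18, limma called 1 higher and 2 lower, beside 5.19% and 2.87% of all genes. The median of the list was 0.04. Gsta4, a glutathione transferase that acts on lipid aldehydes, was at -2.10 on A, -2.42 on B and -1.80 with IL-3, which was 4.79-fold lower in A and B (adjusted p = 6.25e-08 by limma). Gclm, the modifier subunit of glutathione synthesis, was called lower at -0.52 (adjusted p = 0.0458), and Gstp1, another glutathione transferase, higher at 0.70 (adjusted p = 0.0166). Centring the arrays ended the calls of both, at adjusted p = 0.0893 and 0.0695. The organic cation carriers Slc22a4 and Slc22a5 stood at -0.03 and 0.13 and the major vault protein Mvp at 0.45, and these were not called (adjusted p = 1, 0.928 and 0.0944 by limma).

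The sterol exporters Abca1 and Abcg1 moved in opposite directions. Abca1, which loads cholesterol and phospholipid onto lipid-poor apolipoprotein, stood at -0.95 on A, -1.57 on B and -0.80 with IL-3. All 3 BCR-ABL arrays were below the parental array, B by the most, and the difference of B from A, -0.62, was the widest in the family. The mean of A and B was -1.26 (SE 0.20, 95% interval -1.68 to -0.83, adjusted p = 0.000459 by limma), or 2.39-fold lower. The adjusted p rose to 0.0226 with robust limma and to 0.0412 after centring. Abcg1, which passes sterol to lipoprotein particles, stood at 0.81 on A, 0.71 on B and 1.00 with IL-3. The 3 arrays were close together above the parental array, and the mean of A and B was 0.76 (SE 0.15, 95% interval 0.43 to 1.08, adjusted p = 0.00363 by limma), or 1.69-fold higher. Both genes are textbook targets of the liver X receptors (LXR).

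Of 11 measured sterol and LXR genes on a list of 13, limma called 0 higher and 2 lower, beside 5.19% and 2.87% of all genes. The median of the list was -0.16. The called genes were Mylip, an LXR target that degrades the LDL receptor (-0.57, adjusted p = 0.0342), and Rxrb, a partner of LXR (-0.54, adjusted p = 0.0363). Neither call held after centring, at adjusted p = 0.0883 and 0.0899. The receptor Nr1h3 stood at -0.14 and Srebf1, the LXR-responsive regulator of fatty acid synthesis, at -0.23, and these were not called (adjusted p = 0.893 and 0.612 by limma).

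In the rest of subfamily A, 0 of 15 genes were called by limma in either direction and 0 by robust limma, and 2, Abca2 and Abca7, had an unadjusted p under 0.05 in limma. Over all genes 8.06% were called, and 16.6% had such an unadjusted p. Abca2, a lipid transporter of lysosomes, stood at -0.37 on A, -0.70 on B and -0.54 with IL-3 and missed the threshold (mean of A and B -0.53, adjusted p = 0.0599). Abca7, which binds phospholipid and amyloid, stood at -0.27, -0.60 and -0.31 (mean -0.43, adjusted p = 0.153). All 3 arrays were below the parental array for both genes. Abca12, the lipid transporter of skin lamellar granules, had the highest mean in the subfamily at 0.07, and its probe set was dim. The subfamily's median was -0.09, beside -0.038 over all genes.

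In the rest of subfamily G, Abcg3 fell. It encodes a mouse half-transporter related to Abcg2 and stood at -1.36 on A, -1.43 on B and -1.11 with IL-3. All 3 arrays were more than 2-fold below the parental array and A and B were close, and the mean of A and B was -1.40 (SE 0.15, 95% interval -1.72 to -1.07, adjusted p = 9.40e-06 by limma), or 2.63-fold lower. This was the largest decrease in the family, and it rests on a dim probe set. The sterol half-transporters Abcg5 and Abcg8 had means of -0.09 and -0.01 and dim probe sets, and Abcg4 was at -0.12.

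Abcb10, a mitochondrial half-transporter needed for haem synthesis in red cell precursors, stood at -1.14 on A, -1.29 on B and -1.26 with IL-3. The 3 arrays lay close together and far below the parental array. The mean of A and B was -1.21 (SE 0.16, 95% interval -1.54 to -0.89, adjusted p = 5.06e-05 by limma), or 2.32-fold lower. The other mitochondrial members measured were Abcb6, a porphyrin transporter, at -0.27, -0.29 and -0.34, and Abcb8 at -0.11, -0.18 and -0.22, and they were not called (adjusted p = 0.419 and 0.873 by limma).

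Of 14 measured genes of haem and iron-sulphur synthesis on a list of 16, limma called 1 higher and 1 lower. Over all genes these shares were 5.19% and 2.87%, and the median of the list was -0.04. Alas1, the first enzyme of haem synthesis in cells outside the red lineage, rose 3.22-fold (1.65 on A, 1.72 on B and 1.44 with IL-3, adjusted p = 9.14e-07). Urod, a later enzyme, was lower at -0.60 (adjusted p = 0.0186, and 0.0559 after centring). Slc25a37, the mitochondrial iron importer that Abcb10 stabilises, stood at -0.36 and was not called (adjusted p = 0.23 by limma). Of 6 measured erythroid markers on a list of 8, limma called 0 higher and 4 lower, beside 5.19% and 2.87% of all genes. Their values ran from -3.06 to 0.12 in the mean of A and B. The called markers were Rhag (-3.06), Hbb-y (-2.55), Klf1 (-0.92) and Epor (-0.70), while the red-cell enzyme Alas2 was at 0.08. Their part in the lower value of Abcb10 was not tested, and in bulk RNA fewer cells of a type and less RNA per cell cannot be told apart.

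In subfamily C, which pumps organic anions and conjugates, Abcc5 fell and the other 9 genes were not called by limma. Over all genes limma called 8.06%. Abcc5, an exporter of cyclic nucleotides, stood at -0.73 on A, -0.52 on B and -0.45 with IL-3. The mean of A and B was -0.63 (SE 0.16, 95% interval -0.96 to -0.29, adjusted p = 0.0181 by limma), or 1.54-fold lower. The highest mean in the subfamily was that of Abcc1 at 0.39. Abcc4, which exports nucleoside analogues and prostaglandins, stood at -0.04 on A, -0.09 on B and -0.37 with IL-3. The subfamily's median was -0.06.

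Members of subfamily D carry fatty acids into the peroxisome or, for Abcd4, cobalamin out of the lysosome. Limma called 0 of these 3 genes, beside 8.06% of all genes, and robust limma called 0. An unadjusted p under 0.05 in limma was found for 0 of the 3, beside 16.6% of all genes. Abcd4 had the highest mean at 0.22 and stood at 0.12, 0.32 and 0.20, all above the parental array. Abcd3 stood at -0.09 on A, -0.004 on B and -0.35 with IL-3. Of 9 measured peroxisomal partners on a list of 10, limma called 1 lower, Crot, and 0 higher. Over all genes 2.87% were called lower and 5.19% higher, and the median of the list was -0.09.

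The members that act in translation lay above the parental array. Abce1, which splits ribosomes for recycling, stood at 0.57 on A, 0.68 on B and 0.41 with IL-3 (mean of A and B 0.62, SE 0.15, 1.54-fold higher, adjusted p = 0.0154 by limma). Abcf2 stood at 0.77 on A, 0.69 on B and 0.55 with IL-3 (mean 0.73, SE 0.15, 1.66-fold higher, adjusted p = 0.0049 by limma). Abcf1, an initiation factor partner, was at 0.19, 0.25 and 0.18, and Abcf3, a partner of the Gcn2 pathway, at 0.00, 0.19 and 0.11, and neither was called (adjusted p = 0.629 and 0.971). All 4 genes were thus above the parental array on each of the 3 BCR-ABL arrays (Abcf3 by only 0.0003 on A). Of 8 measured genes of ribosome rescue and translation on a list of 10, limma called 1 higher and 0 lower. Over all genes these shares were 5.19% and 2.87%, and the median of the list was 0.29. The called gene was Eif2s2, a subunit of the initiation factor eIF2, at 0.65 on A, 1.12 on B and 0.78 with IL-3 (adjusted p = 0.00376, and 0.0917 after centring).

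The ABC proteins Tap1, Tap2 and Cftr carry other symbols and stand outside the 48. Tap1 and Tap2 form the pump that brings peptides into the endoplasmic reticulum for class I presentation. Tap2 stood at -0.74 on A, -0.94 on B and -0.54 with IL-3 and was called lower (mean of A and B -0.84, 1.79-fold, adjusted p = 0.00205 by limma). Tap1 stood at -0.35, -0.41 and -0.02 and was not called (adjusted p = 0.18). Of their 12 partners in peptide supply and loading, limma called 2 higher and 0 lower, beside 5.19% and 2.87% of all genes. The median of these partners was 0.32. The called genes were Psmb10, a subunit of the immunoproteasome (0.85, adjusted p = 0.00138), and Psme2, a proteasome activator (0.71, adjusted p = 0.00596). The other immunoproteasome subunits Psmb8 and Psmb9 were at -0.18 and -0.25 and were not called (adjusted p = 0.788 and 0.509).

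**Figure D3:**
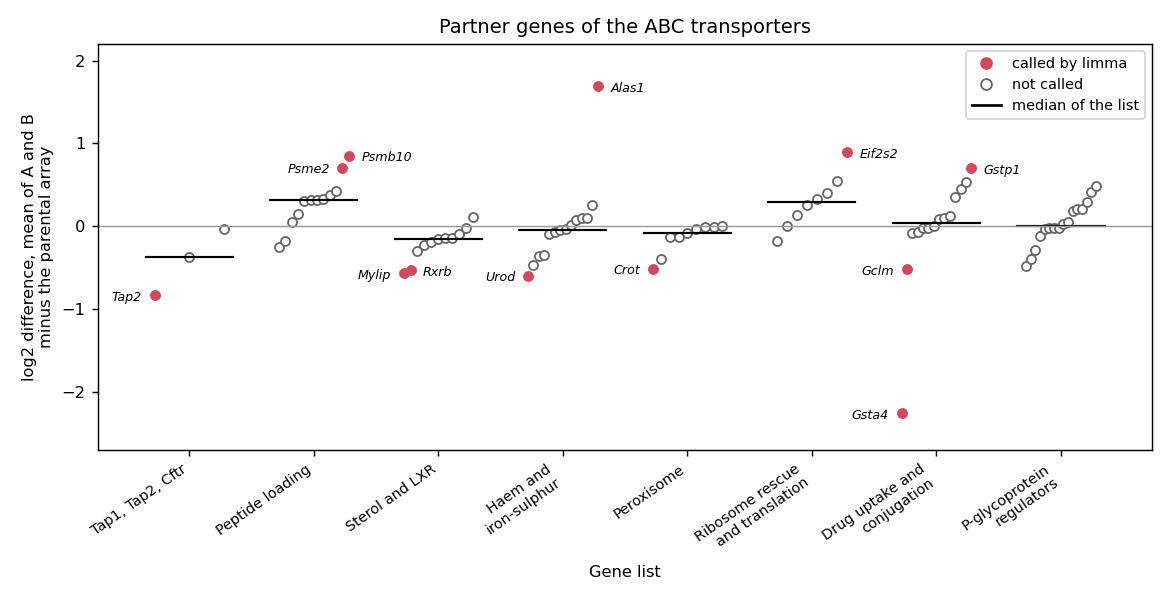
Log2 difference of the mean of A and B from the parental array (vertical axis) for the measured genes of 8 partner lists; each point is a gene, filled and named where limma called it, and bars are list medians. The list medians run from -0.38 for Tap1, Tap2 and Cftr to 0.32 for peptide loading, and Alas1 at 1.69 and Gsta4 at -2.26 lie farthest from 0.

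Between BCR-ABL cells with and without IL-3 limma called almost no gene, and no member, so the count says little about the family. The array of BCR-ABL cells given IL-3 was set against A and B, which addresses the effect of IL-3 under active kinase. Limma called 0 of 48 members, beside 0.00502% of all genes (1 gene, higher), robust limma called 0, and 1 member had an unadjusted p under 0.05 in limma, beside 4.52% of all genes. That member was Abca1, which was less far below the parental array with IL-3 (with minus without IL-3 0.46, SE 0.20, 95% interval 0.04 to 0.88, adjusted p = 1). Abcb1b was lower with IL-3 than on A and on B, and the difference of -0.34 did not pass (95% interval -0.73 to 0.05, adjusted p = 1 by limma). Against A alone or B alone the difference of Abca1 was 0.15 or 0.77, and that of Abcb1b was -0.08 or -0.60, so both sizes depend on which array is used. For Abcb1a, Abcc1 and Abcg2 the differences were -0.15, 0.11 and 0.02. That of Abcc1 was -0.07 against A alone and 0.29 against B alone, and that of Abcg2 turned to -0.024 after centring.

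Abcc4 and Abcd3 were near the parental level on A and B and below it with IL-3, and their differences of -0.30 and -0.30 were not called (95% intervals -0.63 to 0.02 and -0.62 to 0.03, adjusted p = 1 by limma for each). The array with IL-3 lay above both A and B for 17 of 48 members, beside 39.9% of all genes, and below both for 12 members, beside 25.5%. The median difference of the family was 0.03, as over all genes, and -0.02 after centring. These differences share arrays A and B with the comparison against the parental array.

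**Figure D4:**
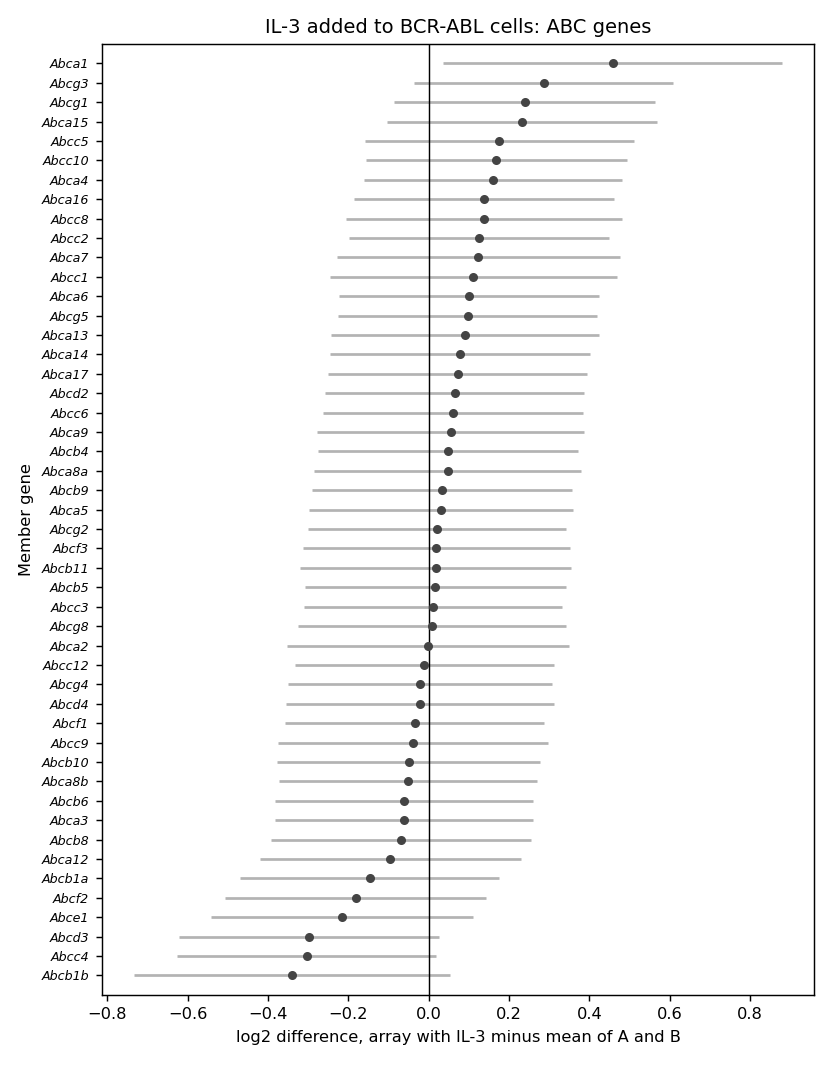
Log2 difference between the BCR-ABL array with IL-3 and the mean of A and B (horizontal axis) for the 48 ABC genes, ordered by value; points are estimates and bars are limma's unadjusted 95% intervals. The points run from -0.34 for Abcb1b to 0.46 for Abca1, and the interval of Abca1 is the only one that does not reach 0.

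With IL-3 present on both sides, BCR-ABL cells were set against parental cells as 1 array against 1 array, by value and fold alone, and no test was run. At least 2-fold apart were Abcb1b, which was 2.85-fold higher, and Abcb10 and Abcg3, which were 2.40-fold and 2.16-fold lower. That is 3 of 48 members, or 6.25%, beside 1.62% of all genes. By direction the 1 higher member stood beside 1.1% of all genes and the 2 lower members beside 0.517%. Abcg1 fell just short of 2-fold higher, at a log2 difference of 0.997, and Abca1 was 1.74-fold lower. The same parental array serves in both comparisons against it, so the values above and these are not independent.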

How the data were processed

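The authors deposited 1 table of values for 4 arrays of 28815 probe sets, read here as log2, with no counts or absolute signals. The parental column is 0 throughout, so the deposited values are differences from that array. Background correction, normalization, probe summary and the base of the logarithm are not given in the sources used here. Base 2 was inferred: 99.5% of the 86431 non-zero values sit, to within 0.01 of a step, on the grid of single-precision numbers in the range usual for log2 array signals. The remaining 453 are printed in exponent form with too few digits to tell. A probe set off the coarser grid used from 8 upwards must have had a log2 signal under 8 on at least 1 array and is called dim, and some dim probe sets are missed by this.

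The platform annotation gives 1 symbol for 21780, several for 1605 and none for 5430 of them. Probe sets with 1 symbol were averaged per gene, giving 19935 genes. No probe set with several symbols named a family member. All 4 arrays were fitted in limma 3.58.1 (R 4.3.3) with 3 group means and empirical Bayes (prior 16.38 degrees of freedom, prior SD 0.128). All tests were two-sided, and p-values were adjusted by Benjamini-Hochberg over all genes. A and B supply the single residual degree of freedom, and the unreplicated arrays are taken to vary as much as A and B do. An exact permutation test of 2 arrays against 1 cannot go below 0.333 and was not used. On a single simulated table for each tested comparison, the fit recovered the size and sign of known changes. With so few residual degrees of freedom the prior can vary widely between tables, and the share of false calls can exceed the nominal rate. Adjusted p-values are therefore approximate.

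The members, lists, motifs and rules were chosen with earlier results of these data known. Genes named were the 4 drug pumps, called members, the extremes of each subfamily, the extremes with against without IL-3 and members 2-fold from the parental array on any array. Abca2, Abca7, Abcb4, Abcb6, Abcb8, Abcc4, Abcf1, Abcg4, Abcg5, Abcg8 and the genes named from lists were picked with their values in view. The alternatives tried were centring, another threshold, fitting only the groups compared, robust empirical Bayes, single probe sets, leaving out dim probe sets, wider annotation and leaving out A or B.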

Additional observations from a re-analysis of the deposited data

How the results depend on the processing

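The count of members called against the parental array was 8, and it was 6 after centring each array on its median (Abcc5 and Abce1 lost), 7 without dim probe sets (Abcg3 not tested) and 9 at an adjusted p under 0.1 (Abca2 gained). Robust empirical Bayes gave 8. Fitting only the groups compared also gave 8, but it could give no other count, since A and B alone supply the residual. Single probe sets gave 8 too, and there only Abcb5 could change its value, as the other members have a single probe set. With against without IL-3, 0 members were called under each of these. In BCR-ABL cells given IL-3 against parental cells, a limit of 1.5-fold in place of 2-fold gave 5 members in place of 3, Abcg1 and Abca1 being added, and leaving out dim probe sets gave 2, without Abcg3. Over the whole table, centring lowered the calls against the parental array from 1035 higher and 572 lower to 637 and 299. Medians near 0 had no stable sign. With against without IL-3 the family's median of 0.0254 turned to -0.0194 after centring and to -0.0021 without dim probe sets, and ran from -0.0257 to 0.0735 on leaving out B or A. The median of IL-3-treated BCR-ABL cells against parental cells, 0.0049, turned to -0.0036 after centring and to -0.0001 over single probe sets. For A and B against the parental array the median stayed below 0, from -0.085 to -0.0091 on leaving out A or B. Among the named genes, uncalled differences with against without IL-3 also changed sign: Abcf3 and Abcg2 to -0.026 and -0.024 after centring, Abcb10 and Abcf3 to 0.02 and -0.08 without A, and Abcc1, Abcd4 and Abcg2 to -0.07, 0.08 and -0.002 without B. Leaving out A or B leaves no residual degrees of freedom, so no calls could be made. No paired analysis was possible because only 1 group has replicates. With 4 arrays precision is limited by their number, and signal over background was not analysed.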
